A study of Mus musculus with 21 samples.

Results

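Pressure overload was set against sham surgery in the mouse left ventricle, gene by gene over the whole transcriptome. The comparison took the 5 libraries labelled TAC and the 5 labelled Sham, chosen by their labels alone, which were 10 of the 21 libraries of the series. The other 11 libraries came from TAC mice given a phosphodiesterase inhibitor. They entered the filter on low counts, the scaling and the estimate of the spread, but not the contrast. TAC mice were C57BL/6J animals that had the overload surgery and no drug. Sham mice were C57BL/6J animals that had the sham operation and no drug. No allele or transgene was labelled in either group, and nothing used here states age, sex or the degree of constriction. Drug treatment in the inhibitor groups began 1 week after surgery and lasted 4 weeks, and ventricles were then collected. The day of collection of untreated mice was not stated separately.

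Transverse aortic constriction (TAC) narrows the aorta, so that the left ventricle ejects against a raised pressure. Heart muscle cells respond by growing rather than dividing, take up again genes of the fetal heart such as the slow myosin Myh7, and shift away from fatty acids as fuel. Fibroblasts of the ventricle are activated at the same time and lay down collagen and other matrix, which stiffens the wall. These are textbook features of the model and are given as background.

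RNA of the ventricular wall was sequenced from total RNA with a strand-marking kit, and each library carried the ear tag of its own animal, so that the replicates were separate mice. The deposited estimated counts summed to 22.67 to 30.49 M (M for 1000000 counts) per TAC library and to 25.86 to 40.99 M per Sham library. No 2 libraries of a group agreed within sampling noise, since the smallest chi-square between any such pair was 11.8 per gene. All 12 cardiomyocyte markers passed the filter on low counts. Myl7, Sln and Bmp10, defining markers of the atrium, did not pass it. Levels below are counts per 1000000 (CPM) on library sizes scaled by TMM, changes are log2 fold changes of TAC over Sham with their standard error (SE), and called genes are those whose Benjamini-Hochberg adjusted p over 14135 genes was under 0.05 in edgeR's quasi-likelihood test.

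Promoters of 3 genes that rose in TAC and that the results below return to are printed to show the sequence before their starts. Each is 300 bases long, from 250 before to 50 after the RefSeq start in GRCm38.p6, read on the minus strand that all 3 genes use. Capitals mark 3 short motifs searched on both strands: the MCAT element GGAATG bound by TEAD factors, the cyclic AMP response element TGACGTCA, and the TATA box TATAAA. Ankrd1 encodes a stretch-responsive protein of the sarcomere, Myh7 the slow myosin heavy chain, and Dio2 the deiodinase that converts the thyroid prohormone T4 into active T3.
Ankrd1, chr19:36119795-36120094: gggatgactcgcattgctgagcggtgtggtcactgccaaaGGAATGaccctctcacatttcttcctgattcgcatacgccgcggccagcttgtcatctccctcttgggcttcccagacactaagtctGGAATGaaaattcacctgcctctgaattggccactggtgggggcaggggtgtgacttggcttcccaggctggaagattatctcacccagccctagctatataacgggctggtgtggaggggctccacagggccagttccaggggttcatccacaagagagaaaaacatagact
Myh7, chr14:54994577-54994876: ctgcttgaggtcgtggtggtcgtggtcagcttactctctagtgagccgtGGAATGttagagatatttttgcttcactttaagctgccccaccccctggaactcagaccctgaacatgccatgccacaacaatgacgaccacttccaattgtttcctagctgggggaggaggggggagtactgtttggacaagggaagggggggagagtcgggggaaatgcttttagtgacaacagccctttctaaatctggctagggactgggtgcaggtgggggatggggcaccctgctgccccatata
Dio2, chr12:90738989-90739288: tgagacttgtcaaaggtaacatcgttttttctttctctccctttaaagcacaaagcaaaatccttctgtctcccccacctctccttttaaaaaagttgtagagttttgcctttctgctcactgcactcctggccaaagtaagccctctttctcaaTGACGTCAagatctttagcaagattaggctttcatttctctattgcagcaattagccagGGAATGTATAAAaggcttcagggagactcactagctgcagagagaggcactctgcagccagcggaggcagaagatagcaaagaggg

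The Ankrd1 promoter held the MCAT letters at positions -210 to -205 and -123 to -118 from the start. The Myh7 promoter held them at -201 to -196, while a second Myh7 promoter listed by RefSeq held none of the 3 motifs. The Dio2 promoter held the cyclic AMP response element at -95 to -88, and the MCAT letters at -36 to -31 directly before the TATA box at -30 to -25. Among 32851 RefSeq mouse promoters of the same length, 4817 (14.7%) held the MCAT letters, 588 (1.79%) the cyclic AMP response element and 4473 (13.6%) the TATA box. These matches describe letters, and binding was not measured.

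Pressure overload moved many genes, and mostly by small steps. Of 14135 genes, 3558 (25.2%) were called: 1718 (12.2%) were higher in TAC and 1840 (13.0%) lower. Among the called genes, 799 of the higher and 1266 of the lower differed by less than 1.5-fold. Over 2-fold, the balance tilted towards rises, with 511 genes (3.62%) higher and 201 (1.42%) lower, and over 4-fold 157 genes were higher and 28 lower. For 2335 genes (16.5%) the 5 TAC and 5 Sham levels did not overlap at all, and 2032 of these were called. The counts leaned on a few animals: 1781 genes were called without TAC 4 and 2019 without TAC 3, against 4440 without TAC 2. The lower genes moved most, to 845 without TAC 4, 895 without TAC 3, 1160 without TAC 1, 1200 without Sham 4 and 1218 without Sham 1. Of the higher genes, 936 were called without TAC 4 and 1124 without TAC 3.

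Falls were most frequent among abundant genes, while rises were most frequent among low genes only when genes were grouped by their Sham level. Among 1600 genes under 1 CPM in Sham, 15.3% were higher and 3.50% lower in TAC. Among 102 genes over 1000 CPM in Sham, which include the sarcomere genes Ttn and Myh6 and the mitochondrial genes Acadm and Cs, 7.84% were higher and 43.1% lower. The share of falls grew with every step of Sham level, from 7.66% at 1 to 10 CPM through 15.0% at 10 to 100 CPM to 26.2% at 100 to 1000 CPM. Grouping genes by their mean over TAC and Sham gave the same order for the falls, from 5.60% under 1 CPM to 37.1% over 1000 CPM, while the rises then lay between 10.8% and 13.4% in every class. The slope of the falls therefore did not need the Sham level for grouping, and that of the rises did. Rises in the low class were also larger, with a median log2 fold change of 1.58 among the called genes under 1 CPM in Sham, against 0.41 among those at 10 to 100 CPM. Called falls were larger in the low class too, at -1.25 against -0.38.

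**Figure D1:**
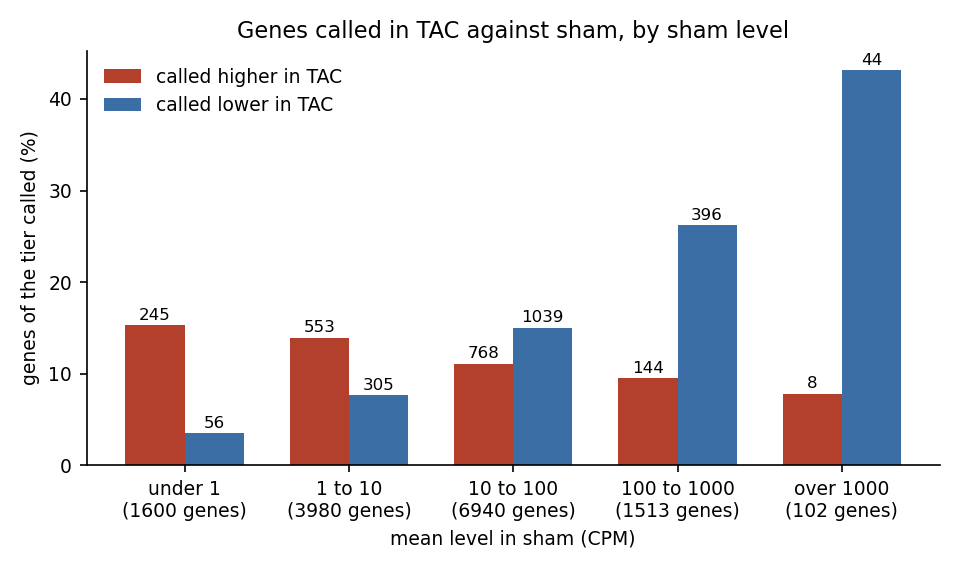
Percent of tested genes called higher and called lower in TAC, by the mean level in Sham (CPM classes on the horizontal axis, number of called genes on the bars). Called falls reach 43.1% of the genes over 1000 CPM, and called rises 15.3% of those under 1 CPM. Grouped by the mean over TAC and Sham instead, rises lay between 10.8% and 13.4% in every class.

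The most abundant genes took a smaller share of counts in TAC. The 10 most abundant genes of each library took 18.32, 20.03, 19.12, 16.40 and 19.24% of counts in TAC, against 21.67, 20.40, 20.27, 22.19 and 21.79% in Sham. Every TAC library lay below every Sham library. The difference was -2.64 percentage points (exact permutation test, two-sided p = 0.00794, the smallest that 5 against 5 allows, and 0.0476 after adjustment over 6 library measures). Titin (Ttn), the giant spring of the sarcomere, headed both groups at 89545 CPM in TAC and 98889 CPM in Sham. Xirp2, an actin-binding protein of the intercalated disc, ranked sixth in TAC at 7858 CPM, against 2216 CPM in Sham (log2 fold change 1.83, SE 0.38, edgeR adjusted p = 0.00402).
The effective number of genes, the exponential of the Shannon entropy of the counts, was 1725 ± 156 in TAC and 1480 ± 101 in Sham (SD, n = 5 each; exact permutation p = 0.0238, adjusted 0.0714). It did not pass the threshold after adjustment, nor did the number of genes at 1 CPM or more, which averaged 12632 in TAC and 12510 in Sham (exact permutation test, adjusted p = 0.179). Genes called higher made up 10.3 to 18.7% of the counts of TAC libraries and 7.04 to 7.99% of those of Sham libraries. Genes called lower made up 19.0 to 26.7% in TAC and 30.1 to 31.8% in Sham. Without any of TAC 1, TAC 3, TAC 4, TAC 5, Sham 1, Sham 2, Sham 4 or Sham 5, the top-10 share had an adjusted p of 0.0952, with 4 libraries in that group. The exact permutation p before adjustment was then 0.0159, the smallest that 4 against 5 allows. TAC and Sham thus stayed apart each time, and the lost threshold came with the smaller group.

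The 5 TAC ventricles differed in how far they had moved. On the first principal component of the 10 libraries, which held 54.9% of the variance, TAC 1 to TAC 5 scored 33.0, -1.09, 47.3, 59.2 and 11.6, against -39.0, -27.4, -29.4, -33.2 and -21.0 for Sham 1 to Sham 5. TAC 4 and TAC 3 lay farthest from Sham. TAC 2 lay nearest, at -1.09 against -21.0 for Sham 5, the closest Sham library. The same order held gene by gene: the median log2 difference from the Sham mean over the 1718 higher genes was 0.63, 0.33, 0.74, 0.85 and 0.41 in TAC 1 to TAC 5. Over the 1840 lower genes it was -0.47, -0.25, -0.54, -0.64 and -0.30. TAC 2 thus showed the smallest shift over the called genes. In it 93.4% of the higher and 96.5% of the lower genes moved the called way. TAC 2 took part in calling these genes, so these shares were largely fixed beforehand. TAC 2 also had the lowest total count of these libraries, 22.67 M, and the part of depth in its position was not tested.

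Animals varied more after TAC than after sham surgery. Among 12837 genes that averaged 1 CPM or more in at least 1 of the groups, the SD of log2 CPM was larger in TAC for 8211 (64.0%), with a median SD of 0.163 in TAC and 0.130 in Sham. Among the genes called higher the share was 77.6%, with medians of 0.255 in TAC and 0.152 in Sham. Among the genes called lower it was 77.8%, with medians of 0.201 and 0.122 in TAC and Sham. Genes that were not called showed the smallest gap, with medians of 0.148 in TAC and 0.128 in Sham. The spread was thus wider among the called genes, whose levels also follow the order of the 5 TAC animals.

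**Figure D2:**
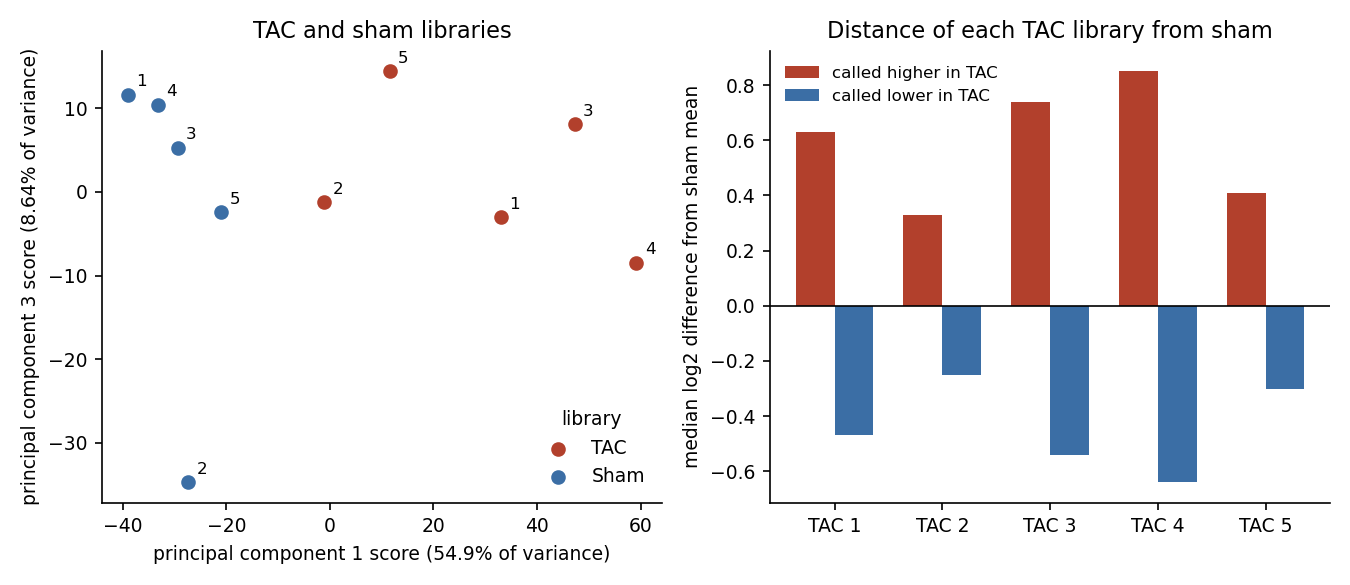
Left, scores of the 5 TAC and 5 Sham libraries on the first and the third principal components. Right, median log2 difference of each TAC library from the Sham mean over genes called higher and genes called lower. TAC 4 shows the largest shift (0.85 and -0.64) and TAC 2 the smallest (0.33 and -0.25), and Sham 2 stands apart on the third component at -34.7.

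Ear tags fell into number series, and their meaning was not given. Tags 156 and 157 (TAC) and 165, 175 and 189 (Sham) formed a series, tags 612 and 631 (TAC) and 606 and 608 (Sham) another, and TAC 3 (tag 541) stood in a series with no Sham mouse. Within the first series 79 genes were called with 2 TAC against 3 Sham libraries, and within the second none with 2 against 2, where 3187 genes had an unadjusted p under 0.05. Of the 3558 called genes, 3555 had the same direction in both series. The libraries of both series also took part in calling these genes, so that agreement was largely fixed beforehand and is no separate check.

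Dio2 and Nox4, genes of thyroid hormone activation and of hydrogen peroxide production, were among the genes with the widest gap between the groups. Dio2 (ENSMUSG00000007682, chr12:90724552-90738438 in GRCm38) had 68.4, 25.4, 118, 154 and 53.9 CPM in TAC, against 3.25, 3.96, 4.43, 4.83 and 5.23 CPM in Sham. Every TAC ventricle stood several-fold above the highest Sham ventricle, with TAC 4 highest and TAC 2 lowest. The log2 fold change was 4.27 (SE 0.69, edgeR adjusted p = 0.00202), and it was 3.60 within the first ear tag series and 4.37 within the second. Dio3, the deiodinase that inactivates thyroid hormone, was also called (edgeR adjusted p = 0.00347) at 0.814 CPM in TAC and 0.0181 CPM in Sham, where its counts were at the floor of detection, so no fold is given.
Nox4 (ENSMUSG00000030562, chr7:87246096-87398710), an NADPH oxidase that releases hydrogen peroxide, had 16.8, 20.0, 25.9, 20.8 and 20.0 CPM in TAC, against 2.04, 2.07, 2.16, 3.64 and 2.90 CPM in Sham. Here the TAC animals lay close together, TAC 2 included. The log2 fold change was 3.00 (SE 0.47, edgeR adjusted p = 0.00202).

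Angptl7, a secreted angiopoietin-like protein, showed the same even rise. It had 20.2, 17.6, 27.9, 25.6 and 25.5 CPM in TAC, against 1.78, 1.51, 3.57, 3.37 and 3.25 CPM in Sham (log2 fold change 3.11, SE 0.71, edgeR adjusted p = 0.00702). Itih2, a heavy chain that links hyaluronan in the matrix, had 4.74, 3.68, 6.32, 4.50 and 3.21 CPM in TAC, against 0.189, 0.630, 0.298, 0.611 and 0.619 CPM in Sham (log2 fold change 3.23, SE 0.52, edgeR adjusted p = 0.00202). In neither gene did the groups come near each other, and TAC 4 was not the highest animal in either.

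Star, the protein that carries cholesterol into mitochondria for steroid synthesis, followed the order of the animals instead. It had 11.7, 2.43, 30.5, 49.7 and 9.62 CPM in TAC, against 0.719, 2.03, 1.56, 1.17 and 1.01 CPM in Sham (log2 fold change 4.00, SE 0.86, edgeR adjusted p = 0.00512). TAC 2 stood just above the highest Sham animal, Sham 2. Its log2 fold change was 2.30 in the first ear tag series and 4.75 in the second. TAC 4 was highest and TAC 2 lowest of the TAC animals.

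Atp6v0a4, a subunit of the proton pump best known from the kidney, had 5.94, 1.08, 12.6, 14.9 and 3.63 CPM in TAC, against 0.265, 0.490, 0.559, 0.345 and 0.658 CPM in Sham (log2 fold change 4.05, SE 0.85, edgeR adjusted p = 0.00440). Panx1, a channel that releases ATP, had 7.80, 3.55, 10.8, 13.2 and 4.29 CPM in TAC, against 1.36, 2.38, 1.97, 1.86 and 2.36 CPM in Sham (log2 fold change 2.00, SE 0.46, edgeR adjusted p = 0.00684). Neither gene overlapped between the groups.

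The retinal dehydrogenases Aldh1a1 and Aldh1a3, which make retinoic acid from retinol's aldehyde, rose at log2 fold changes of 0.86 (SE 0.19, edgeR adjusted p = 0.00591) and 1.60 (SE 0.38, edgeR adjusted p = 0.00804). Rbp7, a retinol carrier, fell (-0.80, SE 0.16, edgeR adjusted p = 0.00395). In all, 4 of 19 tested genes of retinoid handling were higher and 1 was lower, against 12.2% higher and 13.0% lower over all genes.

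More genes of tendon, cartilage and bone were higher than lower in TAC. Of 23 tested members of the list, 14 were higher and 2 lower, against 12.2% higher and 13.0% lower over all genes. Their median log2 fold change was 1.38, against a median of -0.00 over protein-coding genes. The list shares its subject with the matrix, and it was written with earlier results of these data known. Tnmd (tenomodulin), a membrane glycoprotein of tendon, had 4.84, 1.26, 5.14, 2.66 and 4.19 CPM in TAC, against 0, 0, 0.186, 0.106 and 0.348 CPM in Sham (edgeR adjusted p = 0.00252). Each TAC animal exceeded each Sham animal, of which 2 had no count. Scx, the transcription factor that specifies tendon, had 10.5 ± 3.34 CPM in TAC and 3.32 ± 0.583 CPM in Sham (SD, n = 5 each; log2 fold change 1.67, SE 0.37, edgeR adjusted p = 0.00550).
Mgp (matrix Gla protein), an inhibitor of calcification, had 344, 225, 463, 491 and 319 CPM in TAC, against 94.4, 97.9, 139, 104 and 102 CPM in Sham (log2 fold change 1.78, SE 0.31, edgeR adjusted p = 0.00252). Tnfrsf11b (osteoprotegerin), a decoy receptor that restrains bone resorption, averaged 3.97 CPM in TAC and 0.295 CPM in Sham (log2 fold change 3.76, SE 0.80, edgeR adjusted p = 0.00477). Fmod, a small proteoglycan of tendon, averaged 37.1 CPM in TAC and 1.90 CPM in Sham (log2 fold change 4.21, SE 0.96, edgeR adjusted p = 0.00672). Sox6, a cartilage and muscle transcription factor, went the other way, with 23.9, 25.1, 25.1, 21.3 and 25.7 CPM in TAC, against 37.1, 38.4, 37.4, 38.2 and 35.7 CPM in Sham (log2 fold change -0.62, SE 0.10, edgeR adjusted p = 0.00202). Its levels were nearly flat within each group.

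Col22a1 and Frem1 were among the largest rises of the matrix. Col22a1, a collagen of tissue junctions such as that of muscle and tendon, had 13.5, 3.68, 21.4, 17.6 and 13.7 CPM in TAC, against 0.870, 1.12, 0.708, 1.06 and 1.12 CPM in Sham (log2 fold change 3.83, SE 0.69, edgeR adjusted p = 0.00262). Frem1, a basement membrane protein of the embryo, had 13.3, 3.28, 13.2, 16.5 and 6.87 CPM in TAC, against 0.567, 0.771, 0.782, 0.690 and 0.465 CPM in Sham (log2 fold change 4.01, SE 0.74, edgeR adjusted p = 0.00272). TAC 2 was the lowest TAC animal for both and still lay well above every Sham animal. Chodl, Ptx4 and Gpr123 were called at adjusted p of 0.00494, 0.00272 and 0.00317 in edgeR, at 1.29, 1.29 and 1.67 CPM in TAC and 0.0181, 0.0462 and 0.0635 CPM in Sham, too low in Sham for a stated fold.

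Glycolytic regulation, the actin cytoskeleton and the matrix each lost single genes by several-fold. Pfkfb1 (ENSMUSG00000025271, chrX:150588229-150643878), which sets the level of the glycolytic activator fructose 2,6-bisphosphate, had 1.27, 2.87, 1.96, 1.64 and 3.70 CPM in TAC, against 11.8, 9.32, 14.3, 15.4 and 11.3 CPM in Sham (log2 fold change -2.44, SE 0.47, edgeR adjusted p = 0.00317). Phkg1, the catalytic subunit of muscle phosphorylase kinase that starts glycogen breakdown, had 4.84, 9.12, 6.26, 4.47 and 6.97 CPM in TAC, against 21.4, 25.4, 17.5, 22.7 and 25.9 CPM in Sham (log2 fold change -1.84, SE 0.41, edgeR adjusted p = 0.00591). The groups of both genes lay far apart. Ppp1r3c, which targets a phosphatase to glycogen and promotes its synthesis, rose, with 423, 296, 441, 531 and 232 CPM in TAC, against 181, 155, 169, 134 and 139 CPM in Sham (log2 fold change 1.31, SE 0.21, edgeR adjusted p = 0.00202). Sord, the sorbitol dehydrogenase of the polyol pathway, had 116, 175, 86.5, 77.4 and 157 CPM in TAC, against 258, 234, 229, 263 and 210 CPM in Sham (log2 fold change -0.97, SE 0.25, edgeR adjusted p = 0.0107). Its lowest level was in TAC 4 and its highest TAC level in TAC 2.

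Efemp1, a fibulin of elastic matrix, was lower in TAC. It had 1.82, 3.86, 2.05, 2.00 and 2.55 CPM in TAC, against 9.04, 14.5, 10.6, 9.02 and 10.7 CPM in Sham (log2 fold change -2.14, SE 0.37, edgeR adjusted p = 0.00244). Tll2, a tolloid-like metalloproteinase, had 0.378, 0.404, 0.193, 0.0657 and 0.360 CPM in TAC, against 1.63, 1.58, 1.64, 1.65 and 1.82 CPM in Sham (log2 fold change -2.57, SE 0.64, edgeR adjusted p = 0.00948). Every Sham animal stood above every TAC animal in both. Dixdc1, a coiled-coil protein of Wnt signalling that binds actin, had 5.29, 8.04, 6.32, 4.30 and 12.5 CPM in TAC, against 23.6, 24.1, 27.7, 21.2 and 25.0 CPM in Sham (log2 fold change -1.74, SE 0.26, edgeR adjusted p = 0.00186).

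Cardiac receptors, channels and kinases were among the larger falls. Gpr22, an orphan receptor abundant in the heart, had 24.3, 64.3, 40.0, 20.9 and 67.0 CPM in TAC, against 129, 104, 91.8, 117 and 122 CPM in Sham (log2 fold change -1.38, SE 0.33, edgeR adjusted p = 0.00795). Mylk4, a myosin light chain kinase of striated muscle, had 52.9, 51.1, 36.2, 17.5 and 49.6 CPM in TAC, against 200, 114, 127, 179 and 73.5 CPM in Sham (log2 fold change -1.74, SE 0.41, edgeR adjusted p = 0.00738). The Sham animals themselves differed widely in Mylk4, with Sham 5 lowest. Aqp4, a water channel, had 0.309, 1.66, 0.995, 1.02 and 1.80 CPM in TAC, against 7.26, 9.46, 5.55, 5.57 and 10.2 CPM in Sham (log2 fold change -2.72, SE 0.56, edgeR adjusted p = 0.00402). Its groups did not overlap.

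Cenpf, best known as a kinetochore protein of dividing cells, had 11.9, 14.3, 10.3, 8.90 and 7.79 CPM in TAC, against 68.0, 81.6, 23.6, 47.4 and 103 CPM in Sham (log2 fold change -2.61, SE 0.52, edgeR adjusted p = 0.00367). The spread lay in Sham, where Sham 3 was lowest and Sham 5 highest, while the TAC animals were close together. Ccl11 (eotaxin), which attracts eosinophils, had 0, 0.135, 0.193, 0.0985 and 0.556 CPM in TAC, against 1.66, 3.47, 2.94, 2.79 and 2.36 CPM in Sham (edgeR adjusted p = 0.00393). TAC 1 had no count of it.

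Ano10 (ENSMUSG00000037949, chr9:122175874-122294423), a membrane protein of the anoctamin family, had the lowest p of all genes although its change was modest. It had 23.6, 28.3, 23.8, 25.4 and 25.3 CPM in TAC, against 54.0, 51.7, 49.0, 43.4 and 45.0 CPM in Sham. The log2 fold change was -0.95 (SE 0.09, edgeR adjusted p = 6.47e-06), -0.99 within the first ear tag series and -0.80 within the second. TAC 2 was the highest of the TAC animals and still lay far below every Sham animal. Lifr, the receptor of leukaemia inhibitory factor, was also highest in TAC 2 among the TAC animals, with 93.2, 116, 86.3, 81.8 and 105 CPM in TAC, against 162, 158, 163, 154 and 148 CPM in Sham (log2 fold change -0.70, SE 0.11, edgeR adjusted p = 0.00202).

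**Figure D3:**
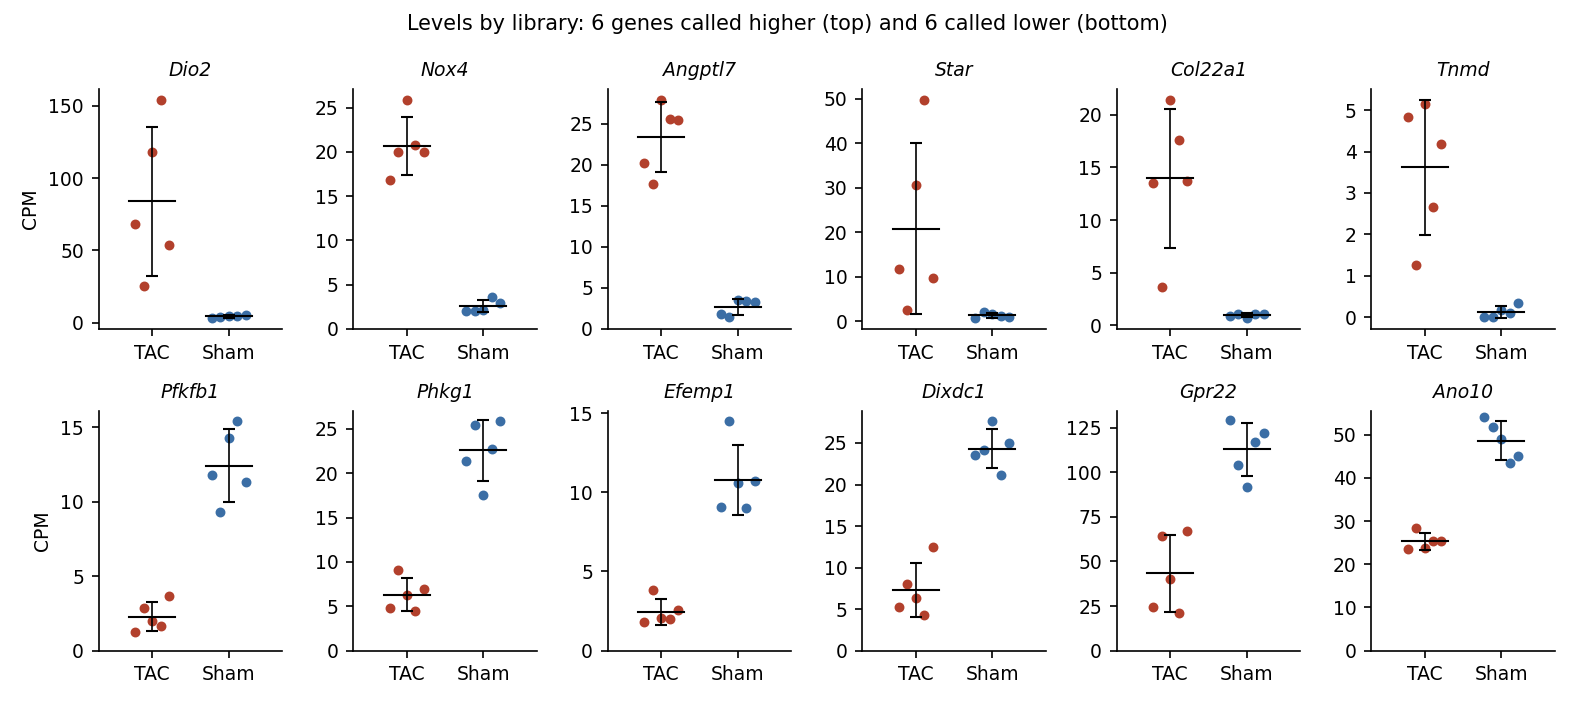
CPM in each TAC and Sham library (points), with mean ± SD (n = 5 each), for 6 genes higher in TAC (top row) and 6 genes lower in TAC (bottom row). In none of the 12 genes do the groups overlap, and the TAC points of Nox4, Angptl7 and Ano10 lie closer together than those of Dio2 and Star.

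Genes of lipid storage and its release were more often lower than higher. Of 22 tested genes of triglyceride and lipid droplet metabolism, none was higher and 11 were lower, with a median log2 fold change of -0.50. Over all genes 12.2% were higher and 13.0% lower, and falls were more frequent at high levels. The part of level in this and the following list counts was not tested. Lipe (hormone-sensitive lipase) had 21, 29.3, 16.1, 24.8 and 33.3 CPM in TAC, against 40.8, 45.8, 47.9, 49.7 and 59.3 CPM in Sham (log2 fold change -0.97, SE 0.20, edgeR adjusted p = 0.00381). Agpat3, an acyltransferase of phosphatidic acid synthesis, had 115, 137, 109, 107 and 131 CPM in TAC, against 180, 185, 172, 196 and 173 CPM in Sham (log2 fold change -0.60, SE 0.10, edgeR adjusted p = 0.00214). The groups of both genes were apart. Mgll (monoglyceride lipase) and G0s2, an inhibitor of triglyceride lipase, fell by 0.48 and 0.83 on the log2 scale (edgeR adjusted p = 0.00402 and 0.00497). Leaving out 1 library at a time left 9 to 13 members lower. Phospholipid synthesis stayed nearer the background, with 2 of 25 higher and 5 lower, which became 3 lower without Sham 4, TAC 1, TAC 3 or TAC 4.

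Genes of mitochondrial upkeep, beyond the enzymes of respiration, were also more often lower than higher. None of 36 tested genes of mitochondrial dynamics, import and genome upkeep was higher and 13 were lower. Over all genes 12.2% were higher and 13.0% lower. The median log2 fold change of the 36 was -0.23, with 1 positive value. Hspd1 and Hspe1, the chaperonin pair that folds imported proteins, fell by 0.57 (SE 0.14, edgeR adjusted p = 0.00877) and 0.50 (SE 0.12, edgeR adjusted p = 0.00899) on the log2 scale. Peo1, the mitochondrial DNA helicase, fell by 0.48 (SE 0.12, edgeR adjusted p = 0.00922). The count was 6 without TAC 4 and 7 without Sham 1, Sham 3, TAC 1 or TAC 3. Of 12 tested genes of mitochondrial calcium uptake 1 was higher and 3 were lower, and 1 was lower without Sham 1, Sham 2, Sham 3, Sham 4, TAC 1, TAC 3 or TAC 4. Micu2, a gatekeeper of this uptake, was the higher one (log2 fold change 0.47, SE 0.08, edgeR adjusted p = 0.00202), and the lower ones were the outer membrane channels Vdac1 and Vdac3 and the ion exchanger Letm1.

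Genes of heme synthesis and iron handling were also among those lower in TAC. Of 26 tested members none was higher and 9 (34.6%) were lower (median log2 fold change -0.21), against 13.0% lower over all genes, and 5 were lower without Sham 1, Sham 4, TAC 1 or TAC 4. Fth1, the ferritin heavy chain that stores iron, had 497, 630, 511, 501 and 536 CPM in TAC, against 765, 729, 731, 816 and 639 CPM in Sham (log2 fold change -0.46, SE 0.11, edgeR adjusted p = 0.00656). Slc40a1 (ferroportin), the iron exporter, had 13.0, 26.3, 11.6, 11.1 and 23.6 CPM in TAC, against 29.0, 35.8, 28.9, 50.8 and 47.2 CPM in Sham (log2 fold change -1.17, SE 0.27, edgeR adjusted p = 0.00760). TAC 2 came within a narrow margin of the lowest Sham animals in both. Cpox, an enzyme of heme synthesis, fell by 0.52 on the log2 scale (SE 0.14, edgeR adjusted p = 0.0128).

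Structural genes of the heart muscle cell split, beside 12.2% higher and 13.0% lower over all genes. Of 23 tested genes of the desmosome and intercalated disc, 4 were higher and 9 lower, and the 9 became 3 without TAC 3 or TAC 4, 4 without Sham 1 or Sham 4 and 5 without TAC 1. Dsg2, a desmosomal cadherin, fell by 0.90 on the log2 scale (SE 0.20, edgeR adjusted p = 0.00548), while Xirp2 rose. Of 46 tested genes of the non-muscle actin cytoskeleton, 43 had a positive log2 fold change, 14 were higher and 1, Palld, was lower. Actn1, the non-muscle actin crosslinker, had 43.7, 30.5, 69.6, 85.6 and 36.8 CPM in TAC, against 18.9, 24.6, 21, 20.0 and 23.0 CPM in Sham (log2 fold change 1.31, SE 0.28, edgeR adjusted p = 0.00519). The actin count depended on single animals, with 4 higher without TAC 4, 6 without Sham 4 or TAC 3, 7 without Sham 1, 8 without Sham 3 or TAC 1 and 26 without TAC 2.

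The Hippo pathway restrains YAP and TAZ, cofactors of the TEAD factors whose element is marked in the promoters above. Of 24 tested members 7 were higher and none lower (median log2 fold change 0.15), against 12.2% higher and 13.0% lower over all genes. Without TAC 4 the higher count was 4, near that share. The 7 were Vgll3, Wwtr1, Yap1, Amot, Mob1b, Dchs1 and Stk4, so cofactors and other members of the pathway rose alike. Yap1 itself had 133, 142, 135, 146 and 116 CPM in TAC, against 107, 114, 101, 102 and 106 CPM in Sham (log2 fold change 0.34, SE 0.07, edgeR adjusted p = 0.00368). The step was small but the groups did not overlap. Wwtr1 (TAZ) rose by 0.55 on the log2 scale (SE 0.11, edgeR adjusted p = 0.00317). Vgll3, another TEAD cofactor, had 12.2, 11.4, 13.8, 22.9 and 8.22 CPM in TAC, against 3.44, 4.24, 3.35, 4.88 and 5.27 CPM in Sham (log2 fold change 1.69, SE 0.31, edgeR adjusted p = 0.00270).

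Genes of the EGF and neuregulin pathway moved both ways. In the EGF and neuregulin pathway 7 of 18 tested genes were higher and 3 lower, against 12.2% higher and 13.0% lower over all genes. Hbegf, an EGF receptor ligand, had 41.8, 21.6, 51.0, 67.7 and 34.6 CPM in TAC, against 15.6, 17.3, 14.5, 16.8 and 17.3 CPM in Sham (log2 fold change 1.41, SE 0.30, edgeR adjusted p = 0.00454). Ereg (epiregulin), another ligand, averaged 2.73 CPM in TAC and 0.178 CPM in Sham (log2 fold change 3.95, SE 0.86, edgeR adjusted p = 0.00522). The receptor Egfr also rose (log2 fold change 0.64, SE 0.22, edgeR adjusted p = 0.0370), while the neuregulin receptor Erbb3 fell by 0.51 on the log2 scale (SE 0.12, edgeR adjusted p = 0.00817). The 7 rises became 3 without TAC 4 and 4 without Sham 1, Sham 2, Sham 3, Sham 4, TAC 1 or TAC 3, and the 3 falls 1 without Sham 1, Sham 4, TAC 1, TAC 3 or TAC 4.

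Ret and its co-receptor Gfra2 were among the neurotrophic genes that fell. Of 19 tested members of the neurotrophic list 1 was higher and 6 were lower, with a median log2 fold change of -0.44, and leaving out 1 library left 4 to 9 lower. The fewest came without TAC 1, and over all genes 12.2% were higher and 13.0% lower. Ret, the signalling receptor for GDNF ligands, had 2.89, 3.77, 4.53, 5.06 and 3.47 CPM in TAC, against 6.69, 9.70, 9.61, 7.80 and 12.3 CPM in Sham (log2 fold change -1.22, SE 0.25, edgeR adjusted p = 0.00402). Its co-receptor Gfra2 averaged 0.332 CPM in TAC and 0.821 CPM in Sham (log2 fold change -1.26, SE 0.35, edgeR adjusted p = 0.0154). Outside this list, Plxnb1, a semaphorin receptor, fell by 1.18 on the log2 scale (SE 0.26, edgeR adjusted p = 0.00535), and Angpt1, the ligand that stabilises vessels through Tie2, by 1.45 (SE 0.35, edgeR adjusted p = 0.00891).

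Secreted factors were more often higher than lower in TAC, beside 12.2% higher and 13.0% lower over all genes. Of 37 tested secreted growth factors and cytokines of muscle and fat 14 were higher and 4 lower, with a median log2 fold change of 0.53. Dkk3 averaged 37.3 CPM in TAC and 4.06 CPM in Sham (log2 fold change 3.20, SE 0.60, edgeR adjusted p = 0.00304). Frzb averaged 36.6 CPM in TAC and 6.43 CPM in Sham (log2 fold change 2.51, SE 0.46, edgeR adjusted p = 0.00272). Sfrp1 averaged 70.7 CPM in TAC and 16.9 CPM in Sham (log2 fold change 2.06, SE 0.42, edgeR adjusted p = 0.00402). The 14 rises ranged from 11 to 16 as libraries were left out, while the 4 falls went to 0 without TAC 3 or TAC 4 and to 2 without Sham 1 or TAC 1. Twist1, a transcription factor of mesenchymal cells, had 2.65, 1.17, 1.99, 2.73 and 2.32 CPM in TAC, against 0.567, 0.841, 0.819, 0.929 and 0.658 CPM in Sham (log2 fold change 1.5, SE 0.25, edgeR adjusted p = 0.00208).

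Genes for sugar chains of the matrix were called as well as those for its proteins. The shares over all genes were 12.2% higher and 13.0% lower. Of 39 tested genes of glycosaminoglycan synthesis and sulfation 10 were higher and 2 lower (median log2 fold change 0.19), with 7 to 14 higher as libraries were left out. Sulf1, which trims sulfate from heparan sulfate, rose by 1.5 on the log2 scale (SE 0.33, edgeR adjusted p = 0.00522). Dsel and Dse, which make dermatan sulfate, rose by 0.94 (SE 0.19, edgeR adjusted p = 0.00367) and 0.84 (SE 0.21, edgeR adjusted p = 0.00918). Sphingolipid genes gave 7 of 21 higher and 2 lower, and 3 higher without TAC 4 or 4 without Sham 4.

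Signals of injury and inflammation gave mixed counts, against 12.2% higher and 13.0% lower over all genes. Of 30 tested genes of the TNF superfamily and NF-kB 7 were higher and 1 lower, with 3 higher without TAC 3 or TAC 4 and 4 without Sham 1 or Sham 4. Tnfrsf12a, the TWEAK receptor, averaged 98.6 CPM in TAC and 45.1 CPM in Sham (log2 fold change 1.13, SE 0.27, edgeR adjusted p = 0.00795), with groups that overlapped. Of 18 tested coagulation genes 7 were higher and 3 lower, and the 7 became 2 without Sham 4 or TAC 4, 3 without TAC 3 and 4 without Sham 1 or Sham 3. The 3 falls became 1 without Sham 2, TAC 3 or TAC 4. Of 25 tested purinergic genes 6 were higher and 6 lower, with the ATP receptor P2rx7 up (log2 fold change 0.78, SE 0.19, edgeR adjusted p = 0.00882) and the ADP receptor P2ry1 down (-0.85, SE 0.21, edgeR adjusted p = 0.00902).

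Hif1a, the oxygen-regulated transcription factor, had 221, 173, 217, 235 and 190 CPM in TAC, against 119, 144, 118, 133 and 149 CPM in Sham (log2 fold change 0.65, SE 0.12, edgeR adjusted p = 0.00262). The hypoxia list, which holds Hif1a itself, did not rise as a whole. Of its 22 tested genes 3 (Hif1a, Lox and Car9) were higher and 4 lower, with a median log2 fold change of -0.02. These counts were near the 12.2% higher and 13.0% lower over all genes. The 4 falls became 2 without TAC 3 or TAC 4. Glucocorticoid targets gave none of 20 higher and 5 lower (median log2 fold change -0.45), against 12.2% higher and 13.0% lower over all genes. The 5 falls became 1 without TAC 3 or TAC 4, 2 without Sham 3 and 3 without Sham 1 or TAC 1. Klf15, a glucocorticoid-induced repressor of hypertrophy, fell by 0.90 on the log2 scale (SE 0.27, edgeR adjusted p = 0.0228), a call lost without Sham 1, Sham 3, TAC 3 or TAC 4.

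Several processes that a growing heart cell might draw on had a share of calls at or under the background of 25.2%. Of 46 tested translation initiation and elongation factors 17.4% were called, of 64 chromatin methylation and acetylation enzymes 15.6%, of 21 Notch pathway genes 9.52%, of 19 ATF4 targets 15.8%, and of 18 genes of serine, glycine and one-carbon metabolism 16.7%. Cytosolic and mitochondrial tRNA synthetases had 24.3% and genes of the IL-6 family, JAK and STAT 24.0%. These shares do not set the lists apart from other genes. Polyamine, arginine and creatine synthesis had 6 of 17 higher and none lower, which became 1 without TAC 3, 2 without Sham 1, Sham 3 or TAC 1 and 3 without Sham 4 or TAC 4.

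**Figure D4:**
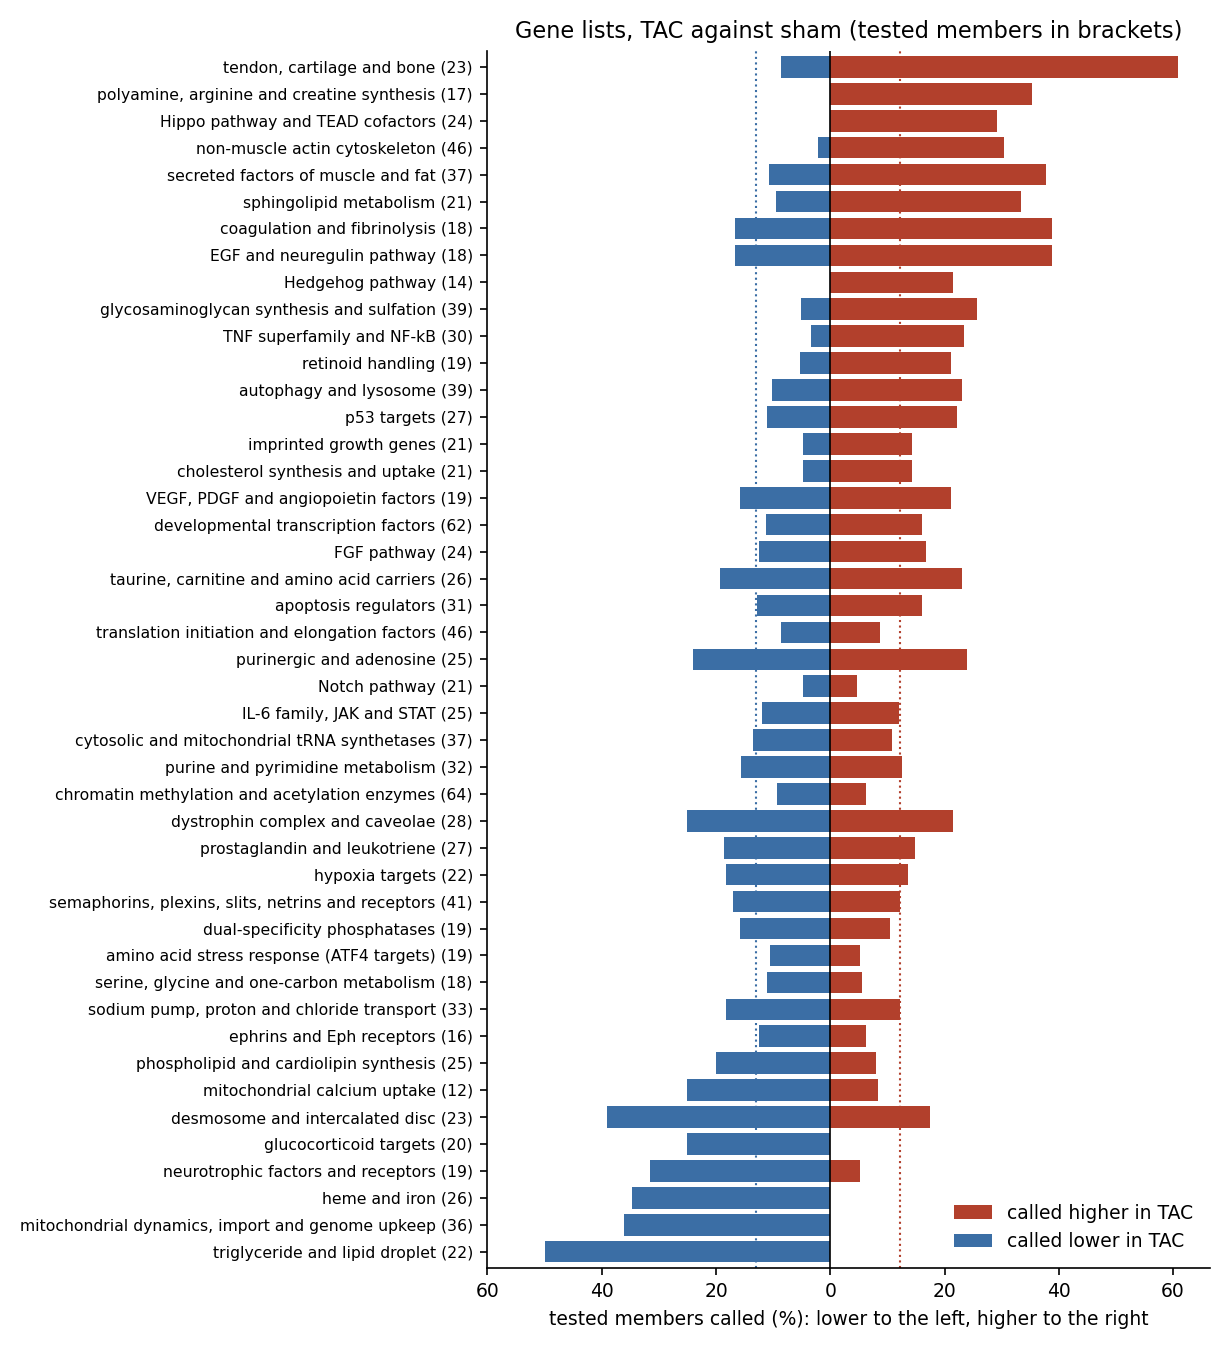
Percent of the tested members of each gene list called higher in TAC (to the right) and called lower (to the left). Dotted lines mark the shares over all genes, 12.2% higher and 13.0% lower; tendon, cartilage and bone genes reach farthest right and triglyceride and lipid droplet genes farthest left.

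Families read off the gene symbols gave another view that used no pathway list. Among 215 families with at least 8 tested members, 11 had no called member. The families named here and in the next paragraph were picked for their large shares called in 1 direction. Shares above the background are therefore built into that choice. Annexins, which bind membranes in the presence of calcium, had 7 of 11 higher and 2 lower, with a median log2 fold change of 0.56, and 5 higher without Sham 4. Anxa8 had 2.99, 1.26, 7.19, 7.95 and 1.77 CPM in TAC, against 0.492, 0.385, 0.261, 0.239 and 0.581 CPM in Sham (log2 fold change 3.45, SE 0.70, edgeR adjusted p = 0.00393). Of the microtubule-associated Map symbols 5 of 9 were higher, of the Chmp symbols, which sever membranes as part of ESCRT-III, 5 of 10, and of the C1qtnf symbols, secreted relatives of adiponectin, 4 of 8. These counts stand against 12.2% higher over all genes. The Map count was 2 and the Chmp count 3 without TAC 4.

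At the low end stood the subunits of respiratory complex I: 9 of 10 Ndufb, 7 of 8 Ndufs and 10 of 13 Ndufa genes were lower. Over all genes 13.0% were lower. These falls were small, as for Ndufs7 (log2 fold change -0.52, SE 0.13, edgeR adjusted p = 0.00973) and Ndufa5 (-0.55, SE 0.14, edgeR adjusted p = 0.0109). Without TAC 3 the counts were 1 Ndufb, 3 Ndufs and 6 Ndufa genes. Stard symbols, carriers of lipids, had 4 of 8 lower, among them Stard10 (log2 fold change -1.18, SE 0.27, edgeR adjusted p = 0.00655). Myosin heavy chain symbols had 4 of 8 higher, and 2 when the ear tag series was a term of the model. Besides Myh7, the perinatal skeletal myosin Myh8 was called (edgeR adjusted p = 0.00568), at 0.996, 0.494, 0.610, 0.690 and 0.589 CPM in TAC, against 0, 0.0350, 0, 0.133 and 0.0387 CPM in Sham, with groups apart at a low level.

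Long noncoding RNAs were measured at lower levels than protein-coding genes, and the difference in their shares called was not tested. Of 402 tested, 5.22% were higher and 9.20% lower, against 12.5% and 13.2% of 13429 protein-coding genes, with a median level of 1.44 CPM for the noncoding and 17.6 CPM for the coding genes. Bc1, a small cytoplasmic RNA best known from neurons, had 48.3, 44.0, 49.5, 44.4 and 42.6 CPM in TAC, against 21.6, 17.7, 26.8, 20.7 and 16.0 CPM in Sham (log2 fold change 1.15, SE 0.19, edgeR adjusted p = 0.00202). Its 5 TAC levels were nearly equal. C130080G10Rik, annotated as antisense, had 152, 115, 130, 106 and 154 CPM in TAC, against 215, 202, 198, 197 and 180 CPM in Sham (log2 fold change -0.60, SE 0.12, edgeR adjusted p = 0.00347). Nothing used here states whether counting used the strand, so reads of an antisense gene and of a gene it overlaps cannot be told apart. Dio3os, annotated as a noncoding RNA of a bidirectional promoter beside Dio3, which it does not overlap, was higher (log2 fold change 2.79, SE 0.61, edgeR adjusted p = 0.00515).

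Called genes were spread over the genome with few local runs. By chromosome, 8.07% (chromosome 17) to 16.1% (chromosome 18) of tested genes were higher and 9.88% (chromosome 8) to 15.9% (chromosome 10) lower. By exon length, the share of rises went from 10.8% in the shortest quintile to 14.4% in the longest, and by GC content it stayed between 11.6% and 13.1%. Of 954 neighbouring pairs with both genes called, 592 (62.1%) shared a direction, while 48.3% of all called genes were higher. Whether neighbours shared a direction more often than other pairs was not tested. The longest runs held 5 genes, and these are described next.

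A run on chr19:36111961-36736653 held Ankrd1, Pcgf5, Hectd2, 1500017E21Rik and Ppp1r3c, all higher. Ankrd1 had 6160, 3364, 6493, 5551 and 5151 CPM in TAC, against 1018, 1419, 1478, 1446 and 1247 CPM in Sham (log2 fold change 2.02, SE 0.31, edgeR adjusted p = 0.00186). Pcgf5, a Polycomb subunit beside it, rose by 0.47 on the log2 scale (SE 0.10, edgeR adjusted p = 0.00522). On chr18 5 neighbouring protocadherin genes, Pcdhb13 to Pcdhb17, were higher, as were 8 of 18 tested Pcdhb genes in all. These genes are close copies of each other, so the split of reads among them is uncertain. A run of serpins and a neighbour on chr13 was higher, and Serpinb6b was its call with the lowest p (log2 fold change 0.66, SE 0.13, edgeR adjusted p = 0.00375).
A run on chr2 was lower, but its calls other than 4930529M08Rik (log2 fold change -2.66, SE 0.51, edgeR adjusted p = 0.00294) were small, and each was lost when single libraries were left out: Crnkl1 without Sham 1, Sham 3, TAC 1 or TAC 3, Kiz without Sham 1, TAC 1, TAC 3 or TAC 4, Naa20 without Sham 1, Sham 2, Sham 3, TAC 3 or TAC 4, and Ralgapa2 without Sham 1, Sham 4, TAC 3 or TAC 4.

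Some marker genes of heart muscle fell and most of those of fibroblasts rose beside these changes. Over all genes 12.2% were higher and 13.0% lower, and of genes over 1000 CPM in Sham 43.1% were lower. The 12 cardiomyocyte markers summed to 121679 to 179971 CPM in TAC and 176098 to 209846 CPM in Sham, ranges that overlapped. Ttn, at 89545 CPM in TAC and 98889 CPM in Sham, was the largest part and was not called. Of the 12 markers 6 were lower and none higher, and 4 were lower without TAC 3. The 12 fibroblast markers summed to 4562 to 7155 CPM in TAC and 2737 to 3463 CPM in Sham. Of these 10 were higher, with 5 higher without Sham 1 or TAC 4 and 6 without TAC 3. The 10 markers of activated fibroblasts summed to 813 to 5327 CPM in TAC and 226 to 330 CPM in Sham, with 9 higher whichever library was left out. In RNA of whole tissue, fewer cells of a type and less RNA per cell cannot be told apart, and the part of these markers in the gene lists above was not tested.

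Markers of other cell types moved in part. Endothelial markers summed to 1298 to 1597 CPM in TAC and 1514 to 1823 CPM in Sham, with 1 of 12 called, the fatty acid binding protein Fabp4 (log2 fold change -0.73, SE 0.10, edgeR adjusted p = 0.00161). Macrophage markers summed to 503 to 579 CPM in TAC and 414 to 563 CPM in Sham. Among them Cx3cr1 and Ccr2 were higher and Cd163, which marks resident macrophages, was lower, calls that were each lost in part of the leave-one-out fits, Cx3cr1 without TAC 4, Cd163 without TAC 3, and Ccr2 without Sham 1, Sham 2, TAC 3 or TAC 4. Smooth muscle markers summed to 2379 to 4637 CPM in TAC and 1979 to 2242 CPM in Sham, most of it Des (desmin), which heart muscle also makes, with 2 of 8 higher and 1 lower. Pericyte markers summed to 1028 to 1370 CPM in TAC and 1436 to 1654 CPM in Sham, with 1 of 8 higher and 1 lower, Abcc9 (log2 fold change -0.82, SE 0.20, edgeR adjusted p = 0.00925). Neither pair of ranges overlapped. The second smooth muscle call (Tagln) and the pericyte rise (Pdgfrb) were each lost without Sham 1, Sham 2, Sham 3, Sham 4, TAC 1, TAC 3 or TAC 4, and Tagln also without Sham 5. Neutrophil and T cell markers summed to at most 14.4 CPM in any library, with none called in edgeR.
B cell markers were called in 5 of 6 tested genes, all higher, although the defining gene Pax5 did not pass the filter. Ighm was not tested either, and over all genes 12.2% were higher. The 6 markers summed to 29.4 to 33.3 CPM in TAC and 22.5 to 33.2 CPM in Sham, ranges that overlapped. Cd79b, a chain of the B cell receptor, had 1.89, 1.26, 1.16, 1.35 and 1.05 CPM in TAC, against 0.492, 0.771, 0.745, 0.690 and 0.503 CPM in Sham (log2 fold change 1.06, SE 0.21, edgeR adjusted p = 0.00317). The levels of Cd79b were low but did not overlap between the groups, while those of Cd22 and Ms4a1 did. The count of 5 was 2 without Sham 4 or TAC 1 and 3 without Sham 1, Sham 3 or TAC 4.

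Erythroid genes, a sign of blood left in the tissue, summed to 556 to 1270 CPM in TAC and 726 to 2572 CPM in Sham, with none of 9 called and 4 lower without Sham 2. The 4 tested atrial markers summed to 441 to 4603 CPM in TAC and 77.1 to 323 CPM in Sham, carried by Nppa. Tubb3, a tubulin listed as a neuronal marker, had 6.77, 1.03, 16.6, 19.0 and 3.63 CPM in TAC, against 0.945, 1.58, 2.16, 1.33 and 1.2 CPM in Sham (log2 fold change 2.71, SE 0.60, edgeR adjusted p = 0.00591). TAC 2 lay inside the Sham range, while the glial marker Sox10 was lower in TAC (log2 fold change -1.60, edgeR adjusted p = 0.0213). The Sox10 call was lost without Sham 3 or Sham 4.

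A few genes spread so widely between animals that the group means say little. Nmrk2, a nicotinamide riboside kinase of muscle that feeds NAD synthesis, had 25.0, 3.91, 80.5, 283 and 17.1 CPM in TAC, against 1.93, 3.01, 2.98, 3.37 and 4.72 CPM in Sham (log2 fold change 4.68, SE 1.02, edgeR adjusted p = 0.00548). TAC 4 stood far above TAC 2, which lay within the Sham range. Kcnv2, a modifying subunit of voltage-gated potassium channels, had 3.85, 18.1, 2.09, 1.77 and 6.22 CPM in TAC, against 20.2, 20.7, 17.9, 21.7 and 17.9 CPM in Sham (log2 fold change -1.64, SE 0.53, edgeR adjusted p = 0.0291). TAC 2 again kept a Sham level, and the call was lost without Sham 1, Sham 4, TAC 1, TAC 3 or TAC 4. Inmt, a methyltransferase, had 4.33, 38.4, 2.28, 0.854 and 11.3 CPM in TAC, against 8.43, 6.94, 8.68, 3.69 and 3.29 CPM in Sham and was not called (edgeR adjusted p = 0.490).

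Immediate early and heat shock genes were high in a single Sham animal. Fos had 33.5, 41.1, 2.38, 27.1 and 6.15 CPM in TAC, against 0.945, 154, 3.05, 3.34 and 2.01 CPM in Sham (edgeR adjusted p = 0.734). Egr1 had 19.8, 45.7, 6.93, 35.9 and 17.8 CPM in TAC, against 3.52, 110, 5.03, 4.91 and 5.77 CPM in Sham (edgeR adjusted p = 0.977). Sham 2 exceeded every other animal, while the other 4 Sham animals were at or below nearly all TAC animals. The chaperone Hspa1a, whose reads cannot be cleanly split from its near copy Hspa1b, had 43.9, 11.0, 7.35, 57.7 and 8.58 CPM in TAC, against 2.91, 174, 6.85, 5.26 and 3.91 CPM in Sham (edgeR adjusted p = 0.696). Ptgs2, the inducible cyclooxygenase, had 4.84, 4.13, 3.43, 8.51 and 1.80 CPM in TAC, against 0.908, 29.4, 1.42, 0.876 and 1.59 CPM in Sham (edgeR adjusted p = 0.645). Sham 2 was also the animal apart on the third principal component, and 2987 genes were called without it.

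**Figure D5:**
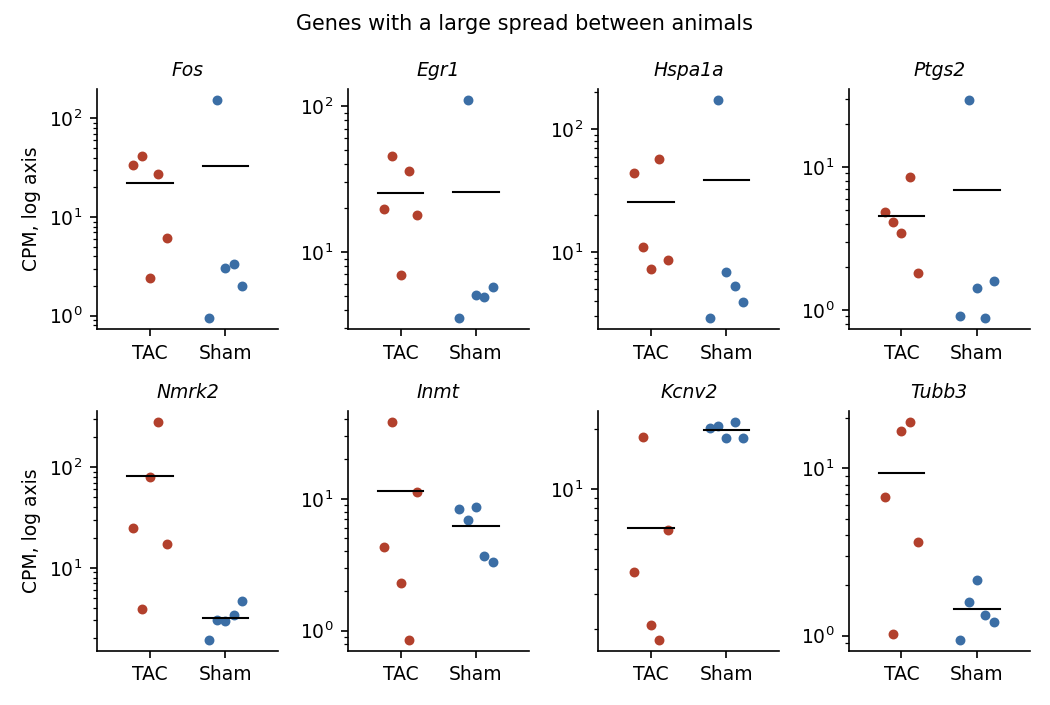
CPM on a log axis in each TAC and Sham library (points; the line is the mean, n = 5 each) for 8 genes with a large spread. Sham 2 stands apart in the top row at 154 CPM for Fos and 174 CPM for Hspa1a, and in the bottom row TAC 2 lies at a Sham-like level for Nmrk2, Kcnv2 and Tubb3.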

How the data were processed

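The authors deposited a table of RSEM expected counts, which are estimated counts per gene and not normalised, for 24054 gene symbols in 21 left ventricle libraries; 19% of the values carried decimals. The submitters' processing notes name RSEM 1.3.0 and HISAT2 2.0.5, and also CASAVA 1.8.4, DESeq2 1.18.1 and the build mm10, but no source used here names the gene annotation. Samples were grouped by their labels.

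Counts were rounded to whole numbers, filtered with filterByExpr (14135 genes left), scaled by TMM and tested with edgeR 4.0.16 (robust quasi-likelihood F test, R 4.3.3). Fitting 1 model to all 21 libraries gave the TAC minus Sham contrast, with Benjamini-Hochberg adjustment over all genes tested. The filter and the scaling also used all 21. With only TAC and Sham libraries, 13761 genes were tested and 3925 called. For library measures an exact permutation test was used (two-sided; p cannot go below 0.00794 with 5 against 5), adjusted over 6 measures. For plots and spread, log2 CPM used a prior count of 2. Symbols were matched to GENCODE M21 (13970 genes, 558 of them through RefSeq synonyms), and coordinates are GRCm38, the assembly of mm10. Shares of promoters holding a motif were not compared between called and other genes, because 10572 of 13429 protein-coding genes (78.7%) had a promoter in the table, under the 80% set as a minimum. The step was tested on simulated data: of genes changed 2-fold, 58 of 67 were recovered, and of those changed 1.5-fold, 49 of 67.

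Named genes were the largest rises and falls in 3 classes of level among called genes without overlap, those with the widest gap between groups, the called members of each list and symbol family with the lowest p, long noncoding RNAs with the lowest p, genes whose SD differed most, and genes of the longest runs of neighbours. Scx was named after its values were seen, and some genes that the rule picks are not reported here. The members and lists were chosen with earlier results of these data known. Alternatives were RLE scaling, no filter, at least 1 CPM in 5 libraries, only TAC and Sham libraries, the ear tag series as a term, the replicate number as a block, counts not rounded, a test against a 1.2-fold change (glmTreat), limma voom 3.58.1, DESeq2 1.42.0, each library left out, and each ear tag series alone. Counts cover sampling of reads, and intervals and floors of 3 counts cover counting error only.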

Additional observations from a re-analysis of the deposited data

Results flagged for a closer look

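In groups of 5 libraries, a library was singled out where its gap to the nearest of the others exceeded 0.71 of the whole range of its group. Of 130 groups examined 11 met this, and chance alone gives about 1 in 20, a rate that does not hold for genes named for an unequal spread, such as Fos, Egr1, Hspa1a, Ptgs2, Nmrk2, Inmt and Kcnv2. Values of single genes are CPM.

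Sham 2 stood apart with high levels of 4 genes: 154 for Fos, 110 for Egr1, 174 for Hspa1a and 29.4 for Ptgs2. TAC 2 stood apart with 38.4 for Inmt and 18.1 for Kcnv2, both the highest of the TAC animals, with a total count of 22.67 M (M for 1000000 counts), the lowest of the TAC libraries, and with 12473 genes at 1 CPM or more, the fewest of the TAC libraries. TAC 4 stood apart with 283 for Nmrk2. Sham 3 had 139 for Mgp, the highest of the Sham animals and below every TAC animal. Sham 4 had a total count of 40.99 M, the highest of the Sham libraries.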

How the results depend on the processing

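Of 323 named genes 311 were called. Of these, 243 kept their call in every alternative but the test against a 1.2-fold change and the fits within 1 ear tag series. A further 68 lost the call in at least 1 alternative, and none reversed. In both series 310 had 1 direction, which was largely fixed by calling them with the same libraries. Leaving out TAC 4 ended 57 named calls and TAC 3 52. Over all genes, leaving out each library gave 1781 to 4440 called, 936 to 2219 higher, 845 to 2221 lower, 339 to 644 higher over 2-fold and 107 to 285 lower over 2-fold; the cause was not tested, but fewer libraries enter each fit. Tested against a 1.2-fold change, 777 genes were called, 488 higher and 289 lower, 112 of them lower over 2-fold, because the test asks for more. Within the first ear tag series, with 5 libraries, 79 were called, 44 higher and 35 lower, 27 and 15 of them over 2-fold, with 2389 at an unadjusted p under 0.05; within the second, with 4 libraries, 0 were called in edgeR, with 3187. The other alternatives gave 2681 (ear tag series as a term) to 4542 (limma voom) called, and DESeq2 4152. With the replicate number as a block 3896 were called; same-numbered TAC and Sham libraries had correlations of deviations from -0.184 to 0.0478, so the samples share only a number. Taking 50 most abundant genes in place of 10, their share differed by -2.12 points (exact permutation test, adjusted p = 0.0714). Leaving out libraries, the top-10 difference was -2.99 to -2.09 (exact permutation test, adjusted p up to 0.0952), with the unadjusted p at its floor each time. The difference in effective number of genes was 182 to 287 as libraries were left out, and passed the threshold without TAC 2. The share of Rn45s, the ribosomal RNA precursor, differed by 0.0239 to 0.0429 points and passed without Sham 3. With 5 animals a group, differences under 1.5-fold in variable genes may be missed, and low genes carry few reads.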

Other observations

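Of 26 tested carriers of taurine, carnitine and amino acids 6 were higher and 5 lower, against 12.2% higher and 13.0% lower over all genes. The falls became 2 without Sham 4, TAC 3 or TAC 4 and 3 without Sham 3 or TAC 1. Slc1a3, a glutamate transporter, averaged 9.44 CPM in TAC and 2.51 CPM in Sham (log2 fold change 1.91, SE 0.36, edgeR adjusted p = 0.00317), and Slc1a4, a neutral amino acid transporter, 6.90 CPM in TAC and 2.57 CPM in Sham (log2 fold change 1.43, SE 0.30, edgeR adjusted p = 0.00444). Slc38a3, a glutamine carrier, fell to 48.3 CPM in TAC, against 79.4 CPM in Sham (log2 fold change -0.72, SE 0.16, edgeR adjusted p = 0.00497).

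Of 27 tested genes of prostaglandins and leukotrienes 4 were higher and 5 lower, near the 12.2% higher and 13.0% lower over all genes. The falls became 2 without TAC 3 and 3 without Sham 2, Sham 4, TAC 1 or TAC 4. Pla2g4a, the phospholipase that frees arachidonic acid, and Ptgis, the prostacyclin synthase, rose (log2 fold changes 1.27, SE 0.28, and 1.32, SE 0.34; edgeR adjusted p = 0.00531 and 0.0115). The lipoxygenases Alox5 and Alox12 fell (log2 fold changes -0.89, SE 0.22, and -1.01, SE 0.27; edgeR adjusted p = 0.00858 and 0.0131), as did Pla2g5, a secreted phospholipase, Ptges3, a prostaglandin synthase, and Ephx2, an epoxide hydrolase. Bcl2, an inhibitor of apoptosis, averaged 51.4 CPM in TAC and 18.8 CPM in Sham (log2 fold change 1.45, SE 0.27, edgeR adjusted p = 0.00290). The death receptor Fas averaged 9.42 CPM in TAC and 14.1 CPM in Sham (log2 fold change -0.59, SE 0.11, edgeR adjusted p = 0.00290).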
